A study of Homo sapiens with 12 samples.

Results

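PLS3, CORO1C, NCALD, CHP1, ZPR1, UBA1, NAIP and SERF1A are 8 genes linked to spinal muscular atrophy (SMA) as modifiers of the disease, as partners of the SMN protein, as the cause of a related motor neuron disease, or as neighbours of the SMN genes. They were taken from the RNA-seq of human neurons by gene symbol, and all 8 were listed in both cell types, among 15899 symbols in the iMN table and 18390 in the i3N table. The 8 symbols fill 11 entries of each table, because NAIP has 3 Ensembl identifiers and SERF1A has 2.

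The study knocked down SMN in 2 kinds of human neuron and sequenced rRNA-depleted total RNA from 12 libraries. iMNs were motor neurons differentiated with small molecules from iPSCs that carry a Td-Tomato reporter under the HB9 promoter, and they were sorted by FACS on that reporter. i3Ns were neurons made from the H1 ES cell line by inducible NGN2, a transcription factor that drives stem cells into an excitatory neuron fate, and the labels call them cortical neurons. In each cell type, 3 libraries carried a scrambled shRNA (SCR) and 3 carried an shRNA against SMN1 and SMN2 (SMN-KD), both delivered by lentivirus and induced with doxycycline, so the SCR controls were also transduced. The share of cells that took up an shRNA was not measured here. Each cell type came from 1 parental line, so the kind of neuron cannot be told apart from the line, the differentiation and the sort.

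The value used for each gene is the authors' mean normalized count, which pools the SCR and SMN-KD libraries of 1 cell type after division by size factors. Values of single libraries were not analysed here, and the authors' own comparison of SMN-KD with SCR was not used. The levels therefore describe each cell type as a whole, they carry no error between replicates, and they do not show what SMN knockdown did to any gene or how far SMN itself was reduced. Total counts of the libraries are not given, so the depth behind each mean is unknown.

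SMA is a disease of spinal motor neurons caused by loss of SMN1, and the number of copies of the nearly identical SMN2 is the main known modifier of its severity. SMN assembles the small nuclear ribonucleoproteins of the spliceosome and also acts in axons, where actin dynamics and endocytosis at the nerve terminal are disturbed when SMN is low. Several of the modifiers act on those processes. PLS3 and CORO1C bind actin filaments, NCALD and CHP1 are calcium-binding proteins that restrain endocytosis or calcineurin, ZPR1 binds SMN, and UBA1 starts the ubiquitin cascade.

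SERF1A and NAIP lie in the duplicated part of 5q13 that also holds SMN1 and SMN2, and their levels depend on how reads were shared between copies. SERF1A spans 70900669 to 70918530 on the forward strand of chromosome 5 (GRCh38), with 3 exons, and its copy SERF1B spans 70025251 to 70043113 on the same strand. The coding sequences below are those of the MANE Select transcripts in GENCODE, a reference set of 1 transcript for each gene, read 5′ to 3′ from the start codon. They are shown because the capitals, the 116 bases that are identical from the start codon on, cannot tell one copy from the other. The lowercase bases come after the point where these transcripts part. Coding sequence of SERF1A is shown whole, with its 189 bases including the stop codon, and that of SERF1B is cut at the same length from 333 bases.
SERF1A: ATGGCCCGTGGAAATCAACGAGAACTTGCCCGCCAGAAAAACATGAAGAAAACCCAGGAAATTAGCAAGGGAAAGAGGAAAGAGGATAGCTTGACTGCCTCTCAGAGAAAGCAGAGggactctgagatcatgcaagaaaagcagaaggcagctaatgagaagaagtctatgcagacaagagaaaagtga
SERF1B: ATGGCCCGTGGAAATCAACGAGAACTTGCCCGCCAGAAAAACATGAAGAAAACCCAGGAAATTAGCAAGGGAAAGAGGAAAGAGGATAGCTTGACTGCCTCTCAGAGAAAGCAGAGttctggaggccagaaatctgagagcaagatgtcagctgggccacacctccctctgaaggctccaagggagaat

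The MANE Select coding sequence of SERF1A has 62 codons before the stop and that of SERF1B has 110. The difference after the shared bases is one of the transcripts chosen, and the lowercase bases of SERF1A do not mark that copy either. Every run of 31 bases in the SERF1A transcript, 669 of 669, also occurs in an annotated transcript of SERF1B, and 98.3% of the 31-base runs of SERF1B occur in SERF1A. A read inside such a run fits both copies, and 31 bases is the usual word length of Salmon, the program with which the authors quantified transcripts. The split of reads between SERF1A and SERF1B is therefore uncertain, and their sum over all identifiers is the safer quantity.

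The other members differed widely in this respect. UBA1 and PLS3 had no 31-base run in common with a transcript of another gene, and CORO1C shared 0.317% of its runs. NCALD shared 8.97%, all with a single other annotated gene. ZPR1 shared 14.3% and CHP1 20.0%, spread over 4729 and 7528 other genes. NAIP shared 54.5%, and 49.3% of its runs occur in NAIPP2 and 39.1% in NAIPP4, which are pseudogene copies. For NAIP and SERF1A the counting can move reads between annotated genes, and for UBA1, PLS3 and CORO1C there is nearly nothing to move.

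**Figure D1:**
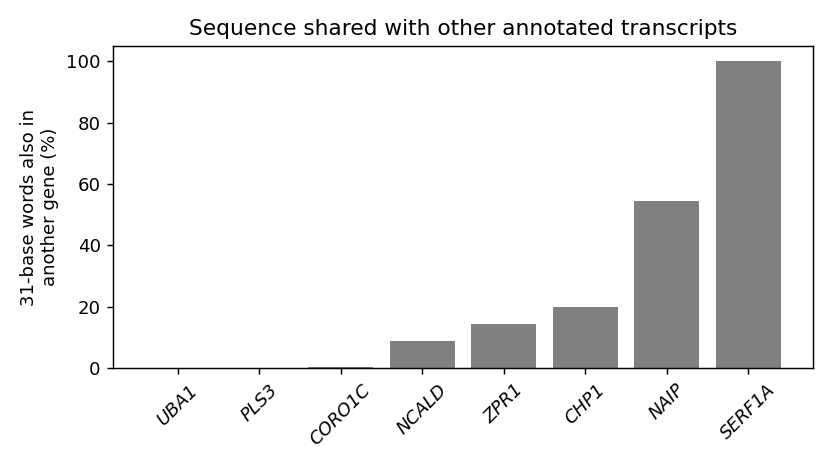
Share of the 31-base runs of each member's MANE Select transcript that also occur, on either strand, in an annotated transcript of another gene (percent, bars from 0). UBA1 and PLS3 are at 0, NAIP is at 54.5% and SERF1A at 100%.

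Marker genes were read before the members, because the means were compared between cell types. Both tables held neuronal genes at high levels, though not every neuronal marker on the list stood as high as those given here. TUBB3, a neuronal tubulin, had a mean normalized count of 58362 in iMNs and 70054 in i3Ns, and SNAP25, a protein of synaptic vesicle fusion, had 18426 and 4847. The cholinergic genes of motor neurons were at similar or higher levels in iMNs, with CHAT, the enzyme that makes acetylcholine, at 532.9 in iMNs and 527.1 in i3Ns, and SLC5A7, the choline transporter, at 8460 and 2472. The motor neuron transcription factors went the other way and against the labels. MNX1, the gene for HB9, had a mean of 429.7 in iMNs and 2279 in i3Ns, ISL1 had 1663 and 14299, ISL2 had 70.6 and 3558, and LHX3 had 15.1 and 229.7. The glutamate transporters were higher in i3Ns, SLC17A6 at 593.3 and 11237 and SLC17A7 at 50.1 and 6490, whereas NEUROG2, the gene for NGN2, was higher in iMNs, at 263.2 and 114.1. The cell types keep the names of their labels below, and were the tables exchanged, every difference given between cell types would turn its direction.

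Markers of other cells also differed. MKI67 and TOP2A, genes of dividing cells, had means of 28.3 and 22.5 in iMNs and 521.7 and 310.7 in i3Ns. LIN28A, a gene of pluripotent cells and early progenitors, had 214.7 and 4216, while POU5F1 and NANOG were listed only for i3Ns, at 34.4 and 7.73. COL1A1, a collagen of mesenchymal cells, had 1321 and 4228, COL1A2 had 686.4 and 610.7, COL3A1 had 507.4 and 1053, and PDGFRB had 30.8 and 275.9. The astrocyte genes GFAP and AQP4 and the microglial gene AIF1 were listed in neither table. ALDH1L1, PTPRC and CX3CR1, genes of astrocytes, blood cells and microglia, were listed only for i3Ns, at 3.64, 6.05 and 5.95, and the macrophage gene CD68 had 120.7 and 49.2. The i3N means of ALDH1L1, PTPRC, CX3CR1 and NANOG were no higher than the lowest mean listed for iMNs, 7.73. Their absence from the iMN table therefore does not show a lower level there. The POU5F1 value is a sum over 4 identifiers, whose single means were not compared with that lowest mean. The part of these cells in the levels of the 8 modifiers was not tested, and in a bulk sample more cells of a type cannot be told apart from more RNA in each cell.

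Levels of the members spanned a wide range in both cell types. Per kilobase of transcript, the highest member, UBA1, was 82.6 times the lowest, NAIP, in iMNs and 61.9 times in i3Ns, and these spans were 341.8 and 184.6 when NAIP and SERF1A were taken from their main-chromosome identifiers alone. The median gene had a mean normalized count of 875.5 in the iMN table and 576.8 in the i3N table. In iMNs 7 of the 8 members lay above that median, all but NAIP, and in i3Ns 6 did, all but NAIP and PLS3. SERF1A stood at the median in iMNs, and its main-chromosome identifier alone, at 872.0, lay below it, which left 6 members above. Among genes with a mean of at least 10, SERF1A lay above 48.8% in iMNs and 47.4% in i3Ns. Its place above the median thus depends on the low genes counted in both cell types. In both tables the order per kilobase began with UBA1 and CORO1C and ended with SERF1A, ZPR1, PLS3 and NAIP, and only NCALD and CHP1 exchanged places. With the longest annotated transcript of each gene, SERF1A moved from rank 5 to rank 7 in iMNs and to rank 6 in i3Ns. With 1 pooled mean for each gene, it cannot be said which neighbours in this order differ beyond the spread between libraries.

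**Figure D2:**
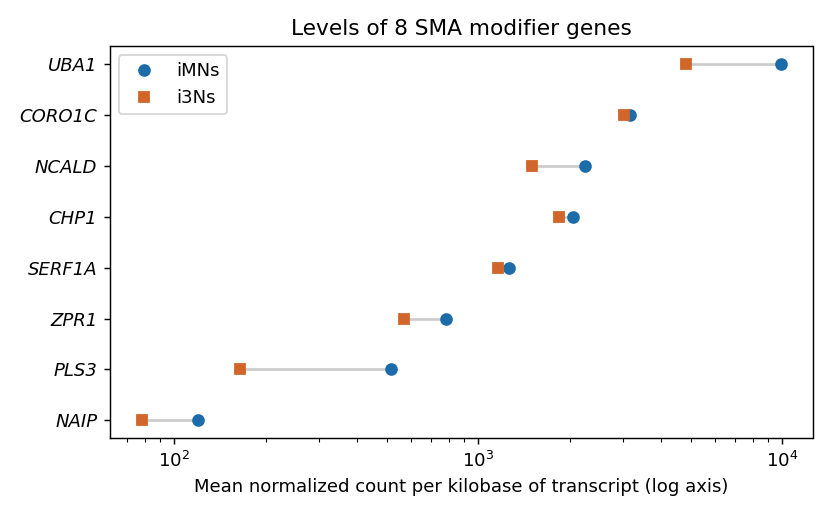
Mean normalized count per kilobase of MANE Select transcript (log axis) of the 8 members in iMNs (circles) and i3Ns (squares), each on the scale of its own table, with a line joining both values of a gene. Each point is the authors' mean over 6 libraries and has no error bar because values of single libraries were not analysed. UBA1 stands highest and NAIP lowest in both.

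PLS3 encodes plastin 3, which bundles actin filaments, and it is known as a protective modifier of SMA. It lies on chromosome X, from 115561174 to 115650861 on the forward strand, and its transcript has 16 exons. Its mean normalized count was 1700 in iMNs, above 65.2% of the genes of that table, and 539.5 in i3Ns, above 49.0%. Among genes with a mean of at least 10, PLS3 lay above 64.3% in iMNs and 39.5% in i3Ns. After each mean was divided by the sum of means of its table, PLS3 was 3.28-fold higher in iMNs, the widest gap among the 8 members. The other plastins were far lower and leaned the other way. PLS1 had 9.83 per kilobase in iMNs and 21.8 in i3Ns, LCP1, the plastin of blood cells, had 9.37 and 25.7, and PLS3 had 516.9 and 164.1. PLS3 thus made up 96.4% of the summed plastin level per kilobase in iMNs and 77.6% in i3Ns.

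CORO1C encodes coronin 1C, an actin-binding protein found with plastin 3. Its gene lies on the reverse strand of chromosome 12, from 108645109 to 108731526, with 11 exons. It had a mean normalized count of 12020 in iMNs and 11531 in i3Ns, above 96.4% and 96.3% of genes, and the scaled levels differed by 1.08-fold. CORO1C was the highest of the 7 coronins in both cell types, with 41.3% of their summed level per kilobase in iMNs and 43.2% in i3Ns. The next in iMNs was CORO7, with 1750 per kilobase beside 3152 for CORO1C, and the next in i3Ns was CORO1A, with 1559 beside 3023. CORO7 had 1033 in i3Ns and CORO1A had 1118 in iMNs. With the longest annotated transcripts CORO7 was second in both, with 16.2% of the summed level in i3Ns beside 14.2% for CORO1A. The 2 actin-binding members therefore stood apart in level, CORO1C being 6.10-fold above PLS3 per kilobase in iMNs and 18.4-fold above it in i3Ns.

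NCALD encodes neurocalcin delta, a neuronal calcium sensor that slows endocytosis, and low NCALD is the state known as protective. The gene lies on the reverse strand of chromosome 8, from 101686542 to 102124907, and its transcript has 4 exons. Its mean normalized count was 7812 in iMNs and 5222 in i3Ns, above 92.6% and 88.7% of genes, and its scaled level was 1.56-fold higher in iMNs. Among 7 neuronal calcium sensors, NCALD ranked second per kilobase in both cell types, below NCS1. It had 2247 per kilobase in iMNs beside 6285 for NCS1 and 1730 for HPCAL1, and 1502 in i3Ns beside 2631 and 1208. HPCAL4 had the widest gap of the family, with 1107 per kilobase in iMNs and 31.4 in i3Ns. HPCA and VSNL1 were between 87.2 and 287.5 in both, and RCVRN, the sensor of photoreceptors, was listed in neither.

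CHP1 encodes a calcineurin-like EF-hand protein that inhibits calcineurin, the calcium-dependent phosphatase of endocytosis. It lies on chromosome 15, from 41230839 to 41281887 on the forward strand, with 7 exons. Its mean normalized count was 6565 in iMNs and 5924 in i3Ns, above 90.8% and 90.3% of genes, a scaled difference of 1.15-fold. Its relatives were low or not listed. TESC had 70.9 per kilobase in iMNs and 21.0 in i3Ns beside 2051 and 1851 for CHP1, and CHP2 was in neither table. Of the calcineurin subunits, the regulatory PPP3R1 was the highest, with 3126 and 2103 per kilobase, and the catalytic PPP3CB had 1421 and 1584, PPP3CC 697.8 and 842.9, and PPP3CA 465.6 and 772.9. PPP3R2, the testis form, was near the bottom at 5.14 and 1.02. Of the other calcineurin inhibitors, RCAN1 had 816.4 and 842.9 per kilobase and RCAN2 had 5973 and 700.6, so the scaled RCAN2 level was 8.86-fold higher in iMNs. RCAN2 was above CHP1 in iMNs and below it in i3Ns.

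ZPR1 encodes a zinc finger protein that binds SMN and the translation factor eEF1A and takes part in bringing SMN to nuclear bodies. The gene lies on the reverse strand of chromosome 11, from 116773799 to 116788039, with 14 exons. Its mean normalized count was 5142 in iMNs and 3722 in i3Ns, above 87.5% and 83.4% of genes, and its scaled level was 1.44-fold higher in iMNs. Division by its long transcript, 6539 bases, placed it at rank 6 of the 8 members, or rank 5 with the longest transcripts. The eEF1A genes were far above it. EEF1A1 had 40860 per kilobase in iMNs and 63944 in i3Ns, EEF1A2, the eEF1A form of mature neurons and muscle, had 13631 and 5601, and ZPR1 had 786.3 and 569.1.

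UBA1 encodes the main ubiquitin-activating enzyme, and its mutations cause an X-linked form of infantile SMA. It lies on the forward strand of chromosome X, from 47190861 to 47215128, with 26 exons. Its mean normalized count was 35301 in iMNs, above 99.4% of genes, and 17279 in i3Ns, above 98.2%. The scaled level was 2.12-fold higher in iMNs, the second gap among the members after PLS3. UBA1 was the highest of 9 genes for activating enzymes of ubiquitin and ubiquitin-like proteins, with 62.1% of their summed level per kilobase in iMNs and 44.0% in i3Ns. UBA6, the other enzyme that activates ubiquitin, had 417.0 and 392.8 per kilobase beside 9883 and 4837 for UBA1. SAE1, a subunit of the SUMO-activating enzyme, was second in both with 2102 and 2094, followed by NAE1 of the NEDD8 pathway with 1149 and 1203, and UBA7, the enzyme for ISG15, was last with 3.45 and 8.40. Of the other 8 enzymes, all but UBA7 had scaled levels that differed between the cell types by at most 1.42-fold.

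**Figure D3:**
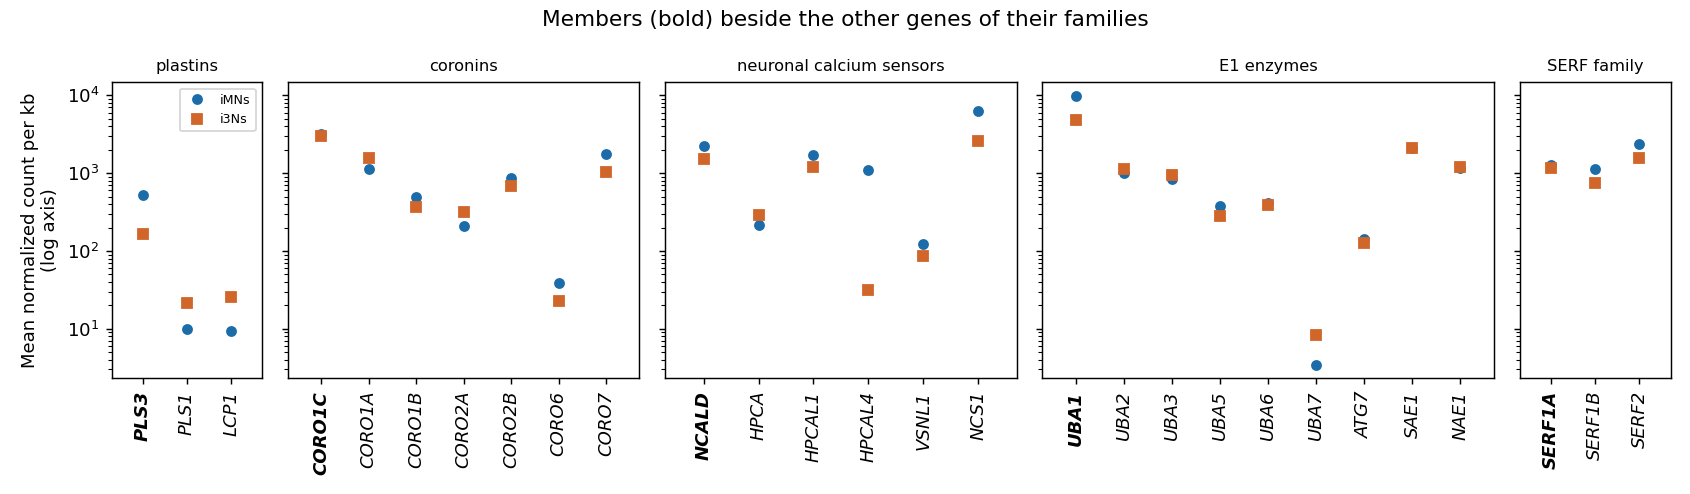
Mean normalized count per kilobase (log axis) of the members, in bold, and the other listed genes of their families, in iMNs (circles) and i3Ns (squares), each on the scale of its own table. PLS3, CORO1C and UBA1 are the highest genes of their families in both cell types, NCALD is below NCS1, and SERF1A is below SERF2.

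NAIP encodes a protein of the inhibitor of apoptosis family that also senses bacterial proteins for the inflammasome. On the main assembly it lies on the reverse strand of chromosome 5, from 70968166 to 71025339, with 17 exons. Its 3 identifiers together had a mean normalized count of 849.1 in iMNs and 554.5 in i3Ns, above 49.4% of the entries of each table. This sets a sum of 3 entries against single entries, and the main-chromosome identifier alone would stand lower. Among genes with a mean of at least 10, this sum lay above 48.1% in iMNs and 39.9% in i3Ns. The main-chromosome identifier ENSG00000249437 held 205.1 in iMNs and 185.9 in i3Ns. ENSG00000276068 held 289.7 and 117.0, and ENSG00000278613 held 354.4 and 251.6, so most of the NAIP signal sat on identifiers outside the main annotation. The scaled sum was 1.59-fold higher in iMNs, a log2 ratio of i3Ns over iMNs of -0.67, and the main-chromosome identifier alone gave -0.20. Per kilobase NAIP had 119.7 and 78.2, below BIRC2 with 793.8 and 831.9, BIRC6 with 873.3 and 1130, and XIAP with 1153 and 582.5. BIRC3 and BIRC5 were listed only for i3Ns, at 1.09 and 25.5 per kilobase, and the inflammasome genes NLRC4 and CASP1 were in neither table. The BIRC3 mean of 7.49 in i3Ns is below the lowest mean listed for iMNs, 7.73, so its absence there does not show a lower level.

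SERF1A encodes a small protein of a family known to promote the aggregation of amyloid proteins. Its identifiers together had a mean normalized count of 880.2 in iMNs and 810.0 in i3Ns, above 50.1% and 55.6% of genes, and nearly all of it, 872.0 and 797.2, was on the main-chromosome identifier ENSG00000172058. ENSG00000275581 held 8.21 and 12.8. The scaled levels differed by 1.13-fold. SERF1B had 2157 and 1409, and SERF1A made up 29.0% of the sum of both copies in iMNs and 36.5% in i3Ns. The sum was 3038 in iMNs and 2219 in i3Ns, a log2 ratio of -0.51 beside -0.18 for SERF1A alone. Unlike SERF1A, SERF1B had only 324.2 and 302.0 on its main-chromosome identifier ENSG00000205572, or 15.0% and 21.4% of its mean. On main-chromosome identifiers alone SERF1A was therefore the higher copy, and its share and the ratio of the sum depend on the identifiers counted. The coding sequences printed above show why the copies are reported together: reads from their shared bases carry no mark of origin. Per kilobase SERF1A had 1259 and 1159, below SERF2, a family member outside 5q13, with 2378 and 1583, and these values rest on a transcript of 699 bases, where the longest annotated one has 1889.

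The other duplicated genes of the region had unlike values between cell types. SMN1 and SMN2 together had a mean normalized count of 1174 in iMNs and 1079 in i3Ns, and these means include the SMN-KD libraries. The transcripts of SMN1 and SMN2 share 95.7% of their 31-base runs with each other. On main-chromosome identifiers alone, SMN1 had 107.9 in iMNs and 299.9 in i3Ns, and SMN2 had 459.6 and 408.7. Which cell type has the higher SMN sum therefore depends on the identifiers counted. GTF2H2 and GTF2H2C, which encode copies of a TFIIH subunit, together had 1749 and 4327, a log2 ratio of 1.25 and thus higher in i3Ns. Each of their identifiers was higher in i3Ns. The levels of the 4 sets of genes in the region, SERF1, SMN, NAIP and GTF2H2, therefore did not share 1 direction.

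Between cell types, all 8 members had lower scaled levels in i3Ns than in iMNs. Their log2 ratios of i3Ns over iMNs ran from -1.71 for PLS3 and -1.09 for UBA1, through NAIP at -0.67, NCALD at -0.64 and ZPR1 at -0.52, to CHP1 at -0.20, SERF1A at -0.18 and CORO1C at -0.12. Their median was -0.58. Over the 11892 symbols that reached a mean of 100 in each table, the median ratio was 0.04, 46.9% of ratios were below 0, and the middle 90% ran from -1.34 to 1.12. PLS3 lay outside that range, with 2.96% of the ratios below its own, and UBA1 had 7.35% below its own. CORO1C, SERF1A and CHP1 lay between the 25th and 75th percentiles of all genes, -0.38 to 0.40. The tables were normalized separately and hold 1 pooled mean for each gene, so these ratios are a description without a test, and whether any of them exceeds the spread between libraries is not known.

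**Figure D4:**
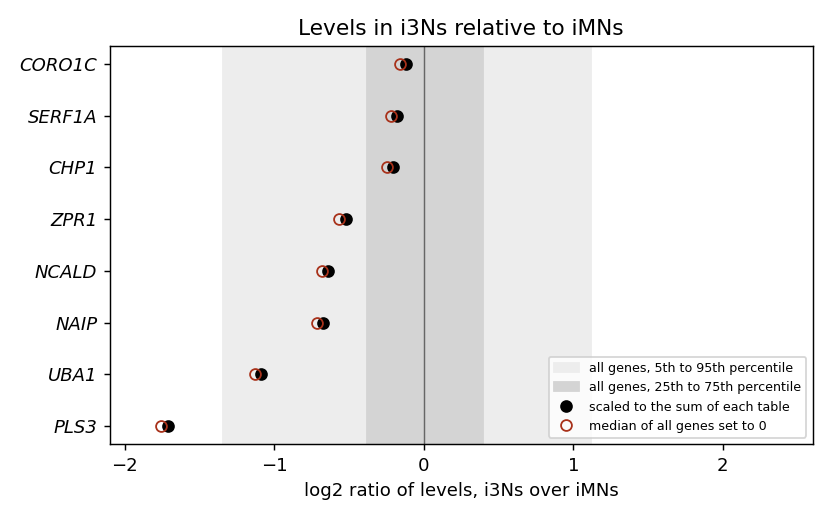
Log2 ratio of the level in i3Ns over that in iMNs for each member, scaled to the sum of each table (filled circles) or with the median of all genes set to 0 (open circles). Light and dark bands mark the 5th to 95th and the 25th to 75th percentile of 11892 genes. All 8 members lie below 0, and PLS3 lies outside the light band at -1.71.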

How the data were processed

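Per the labels and the study's methods, the authors used fastp for trimming, Salmon for transcript abundance and DESeq2 for the knockdown comparison within each cell type. Versions, the transcript annotation and the filter on low counts are not given in the sources used here. The authors deposited 1 table for each cell type, and its signal is the mean over 6 libraries of counts divided by size factors. The lowest deposited mean is 7.73 in iMNs and 1.37 in i3Ns. The other deposited columns hold the authors' fold changes with standard errors, p-values and adjusted p-values, and were not used.

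Means of entries with the same symbol were summed. Percentiles and the median of a table were taken over its single entries, and the sum of a symbol was set against them. Levels were divided by the length of the MANE Select transcript (GENCODE release 44, GRCh38), and between tables by each table's sum of means. The tables list 693 and 878 identifiers outside the main annotation. Runs of 31 bases were matched on both strands to all annotated transcripts. No test was made, since values of single libraries were not analysed. The ratio step was tested on simulated data. Python 3.11.15, pandas 2.3.3, numpy 2.4.6 and matplotlib 3.10.9 were used. The genes named are the 8 members and fixed lists of their families, partners and cell type markers, all chosen with earlier results of these data known, and 2 genes of these lists are not reported here. Alternatives changed the scaling, the entries of a symbol, the transcript length and the genes ranked.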

Additional observations from a re-analysis of the deposited data

How the results depend on the processing

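No ratio between cell types changed its direction under the alternatives run. With the median ratio of all genes set to 0, the log2 ratios of i3Ns over iMNs were -1.76 for PLS3, -0.16 for CORO1C, -0.68 for NCALD, -0.25 for CHP1, -0.57 for ZPR1, -1.13 for UBA1, -0.71 for NAIP and -0.22 for SERF1A. With only the main-chromosome identifier, the ratio was -0.20 for NAIP and -0.19 for SERF1A, and the mean normalized counts in iMNs and i3Ns were 205.1 and 185.9 for NAIP and 872.0 and 797.2 for SERF1A. With the longest annotated transcript, the levels per kilobase in iMNs and i3Ns were 3066 and 2941 for CORO1C, 2051 and 1371 for NCALD and 466.0 and 428.8 for SERF1A. SERF1A then made up 16.0% of the summed SERF level in iMNs and 21.1% in i3Ns, an alternative chosen after seeing the data, as were the order with the longest transcripts and the span with main-chromosome identifiers alone. Ranking only genes with a mean of at least 10 moved the 16 percentiles by at most 9.48 points, and put SERF1A above 48.8% of genes in iMNs and 47.4% in i3Ns, below the middle of both tables, and without division by length 7 of the 16 ranks moved.

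No paired analysis was possible because the deposited means pool the libraries of a cell type, and leaving out a replicate was not done for the same reason. The depth of the libraries is unknown.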
